A study of Mus musculus with 35 samples.

Results

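The comparison described here is that of IL-4 MSCs with PBS at 3 wpi (weeks post-injury), read across all genes, with genes of lymphocytes and antigen presentation kept apart from genes of the striatum. It takes 5 IL-4 MSC mice and 4 PBS mice, 9 of the 34 libraries of the series. All of these mice were male C57BL/6NCrl mice, 8 to 9 weeks old at the start, and all received a closed head injury. On day 5 after injury they were injected in the left hippocampus, either with PBS or with mesenchymal stromal cells (MSCs) that had been transfected with synthetic IL-4 mRNA by means of Viromer Red. The MSCs were purchased primary cells of the C57BL/6N strain, so all 5 IL-4 MSC mice received cells of the same source. RNA was taken 16 days after treatment from tissue around the injection site, which the labels call left cortex with a width of 2 mm and the study's methods give as 3 mm per hemisphere. MSCs without IL-4 mRNA at 3 wpi (5 mice) and uninjured Sham mice (5 mice, of which mice 3 and 4 were taken at 1 week) are given beside these groups as values. The authors excluded 1 PBS mouse of this week, and it was not analysed here. All IL-4 MSC mice share 1 number before the dash of their labels and all PBS mice another, so that anything going with that number cannot be told apart from the treatment.

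T cells recognize peptides through the T cell receptor, whose CD3 chains carry the signal into the cell. The CD8 coreceptor binds MHC class I, which all nucleated cells can display together with beta-2 microglobulin, and the CD4 coreceptor binds MHC class II, which mainly antigen-presenting cells carry. The uninjured brain holds few lymphocytes, and its microglia carry little MHC. The striatum lies beneath the cortex and consists mostly of GABAergic projection neurons, those of the direct pathway with the dopamine receptor D1 and those of the indirect pathway with the dopamine receptor D2, and of a few cholinergic interneurons.

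The 9 libraries held between 30515434 and 41443988 estimated counts. The lowest detectable level was set at 3 counts, which is 0.0724 to 0.0983 CPM (counts scaled to a common library total) and covers counting error only. Pyramidal neurons of the cortex were present in every mouse. Slc17a7, the vesicular glutamate transporter of cortical excitatory neurons, stood at 964 ± 135 CPM (SD, n = 5) with IL-4 MSCs and at 1016 ± 109 CPM (SD, n = 4) with PBS, and its log2 fold change was -0.08 (SE 0.09, adjusted p = 0.744). Regions outside the labelled cortex were present too, in amounts that differed between mice. The mean log2 CPM over 30 genes of striatal projection neurons, called the striatal score below, was 6.66, 5.51, 6.63, 7.22 and 6.84 in IL-4 MSC mice 1 to 5 and 5.32, 5.20, 5.57 and 5.77 in PBS mice 1 to 4. IL-4 MSC mouse 2 thus lay among the PBS mice, and the other 4 IL-4 MSC mice lay above them. The score had an SD of 0.64 in IL-4 MSCs and of 0.25 in PBS. Hippocampal genes went the other way, with scores of 2.42, 4.23, 3.37, 2.04 and 3.15 in IL-4 MSCs and of 4.18, 4.28, 4.12 and 3.79 in PBS, and again mouse 2 was at the PBS level. Thalamic genes scored 5.34, 6.48, 5.32, 4.38 and 4.92 in IL-4 MSCs and 5.43, 5.07, 6.31 and 6.36 in PBS. Hcrt, the hypothalamic neuropeptide hypocretin, had 81, 2, 7, 1 and 1 counts in IL-4 MSCs and 2, 0, 543 and 415 counts in PBS. In bulk tissue, fewer cells of a type and less RNA per cell cannot be told apart.

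**Figure D1:**
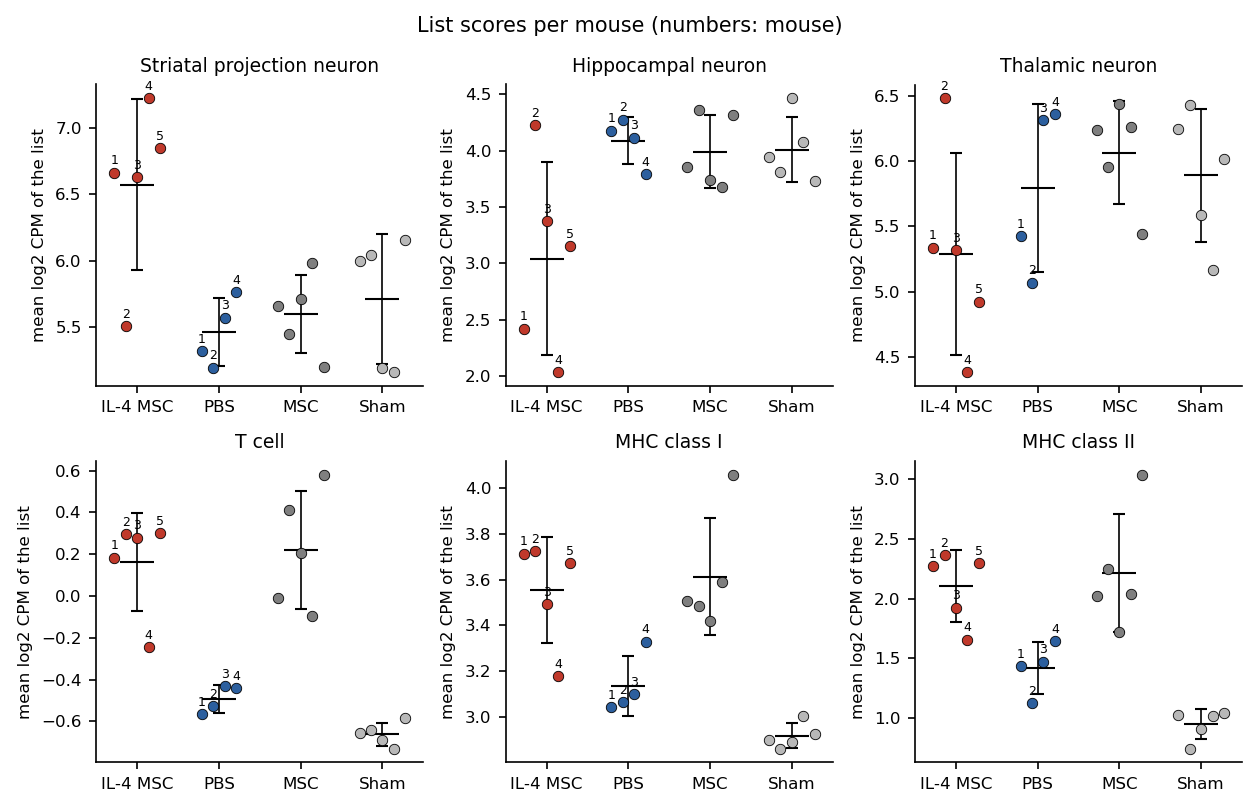
Mean log2 CPM of the genes of 6 lists in each mouse (points), with the group mean and SD (bars), for IL-4 MSCs, PBS and MSCs at 3 wpi and for Sham, of which 2 mice were taken at 1 week. IL-4 MSC mouse 2 sits with the PBS mice in the striatal panel at 5.51 and above all PBS mice in the T cell panel at 0.30, whereas mouse 4 has the highest striatal score at 7.22 and the lowest T cell score of its group at -0.25.

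Of 17131 genes tested with edgeR's quasi-likelihood test, the IL-4 MSC group was higher than PBS in 371 (2.17%) and lower in 133 (0.776%) at an adjusted p under 0.05, together 504 (2.94%). Most changes were small. The log2 fold change was at least 1 in size for 82 of the higher and 12 of the lower genes, and the medians were 0.46 and -0.32. All IL-4 MSC mice lay above all PBS mice in 93 of the 371 higher genes, against 306 of all genes tested (1.79%), and all lay below in 59 of the 133 lower genes, against 245 of all (1.43%). These calls rest on a spread estimated over all 7 groups. When only IL-4 MSCs and PBS were fitted, 0 of 16584 genes passed (0%), while 2431 had an unadjusted p under 0.05 (14.7%), and of the genes that were higher, 1300 had such a p (7.84%).

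**Figure D2:**
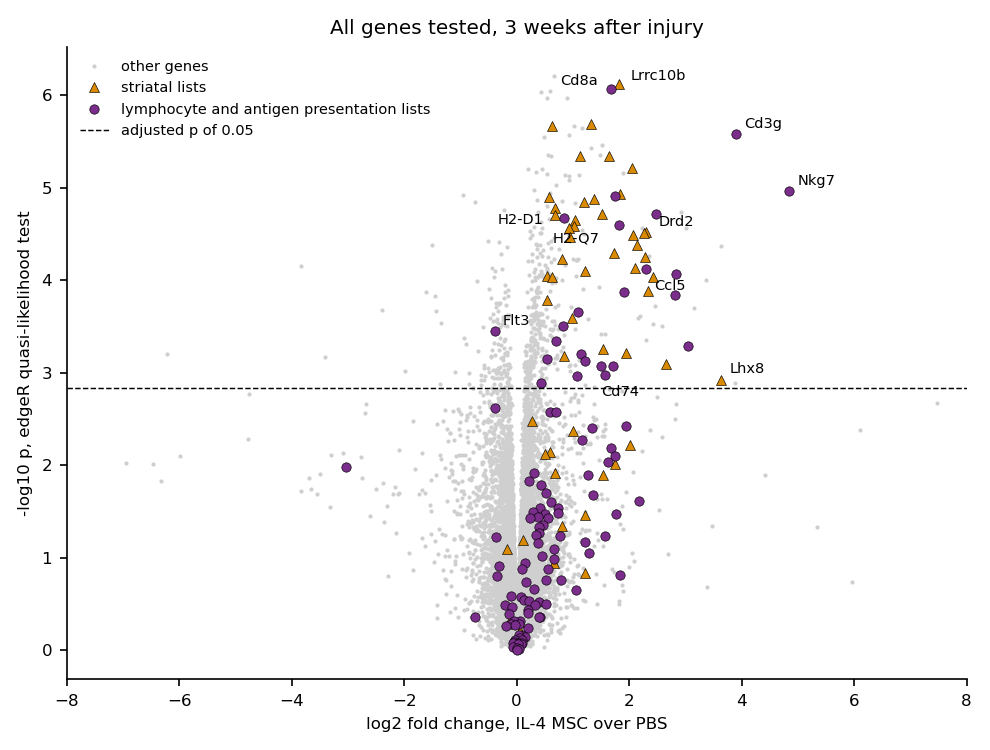
The log2 fold change of IL-4 MSCs over PBS at 3 wpi (horizontal axis) against the -log10 of the unadjusted p (vertical axis) for 17131 genes, with the striatal lists as triangles and the lymphocyte and antigen presentation lists as circles. Members of both kinds of list pass the dashed line, which marks an adjusted p of 0.05, almost all of them on the higher side, and Cd3g and Nkg7 lie farthest to the right among the higher list genes.

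The higher genes held members of 2 sets of lists, and most of the 371 were in neither. In the lists of lymphocytes and antigen presentation, 113 of 126 genes had enough counts to be tested, and 23 were higher (20.4%) and 1 lower, with a median log2 fold change of 0.42, against 0.01 over all genes tested. In the striatal lists all 54 genes were tested, and 37 were higher (68.5%) and 0 lower, with a median of 1.16. In the fit of only the 2 groups, 40 of 92 lymphocyte and antigen presentation genes and 46 of 54 striatal genes were higher at an unadjusted p under 0.05. The share over all genes was 7.84%. The medians in that fit were 0.39 and 1.16.

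**Figure D3:**
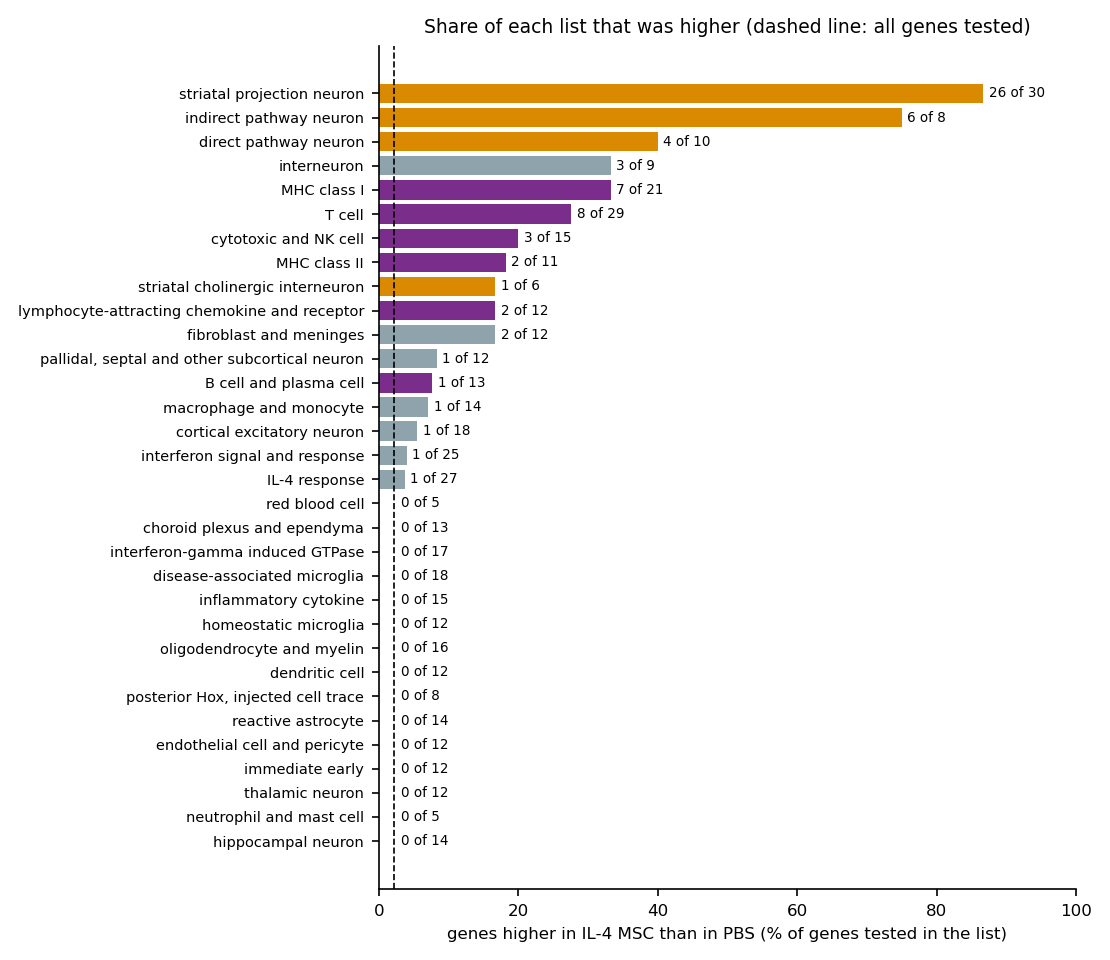
Share of the tested genes of each of 32 lists that passed the test on the higher side, IL-4 MSCs over PBS at 3 wpi (bars, in percent, with the counts beside them), and the share over all genes tested, 2.17% (dashed line). The striatal projection neuron list stands first with 26 of 30 genes, followed by the indirect pathway with 6 of 8 and the direct pathway with 4 of 10, MHC class I has 7 of 21 and T cell genes 8 of 29, and the lists of microglia, astrocytes and oligodendrocytes have 0.

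Some genes of the T cell receptor complex (Cd3g and Cd3e) and both chains of CD8 were higher in IL-4 MSCs, all from low levels. Cd3d and Trac, also of this complex, were not. Of 31 T cell genes, Cd96 and Ctla4 had too few counts, and 8 of the other 29 were higher and 0 lower, with a median log2 fold change of 0.45. Cd8a (ENSMUSG00000053977, chr6:71373427-71379173, GRCm38) encodes the alpha chain of the CD8 coreceptor. It had 1.13, 1.77, 2.05, 0.955 and 1.91 CPM in IL-4 MSCs and 0.468, 0.590, 0.410 and 0.495 CPM in PBS. The groups did not overlap, and the lowest IL-4 MSC value, in mouse 4, was above the highest PBS value. The log2 fold change was 1.67 (SE 0.27, adjusted p = 0.00265), a 3.18-fold difference. In MSCs Cd8a had between 1.36 and 2.64 CPM and in Sham between 0.268 and 0.401 CPM.

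Cd3g (ENSMUSG00000002033, chr9:44969572-44980431, GRCm38), the gamma chain of CD3, had 23, 15, 18, 5 and 22 counts in IL-4 MSCs and 1, 2, 1 and 0 counts in PBS. No PBS mouse was above the lowest detectable level, and all IL-4 MSC mice were. Its log2 fold change was 3.90 (SE 0.68, adjusted p = 0.00345). Per total counts, the summed counts of Cd3g were 16.6 times higher in IL-4 MSCs, with a 95% exact interval of 6.25 to 62.4 that covers counting error only. Cd3e, the epsilon chain, had 19, 13, 16, 10 and 19 counts against 3, 4, 4 and 5, and the groups did not overlap (log2 fold change 1.91, SE 0.44, adjusted p = 0.0134). Cd8b1, the beta chain of CD8, had 27, 17, 25, 10 and 28 counts against 3, 0, 9 and 0 (log2 fold change 2.83, SE 0.63, adjusted p = 0.0108). Mouse 4 was the lowest IL-4 MSC mouse in all 4 of these genes.

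The other higher T cell genes were Il2rb, a chain of the interleukin-2 and interleukin-15 receptors, with a log2 fold change of 1.22, Icos, an inducible costimulatory receptor, with 1.71, Lat, an adaptor of T cell receptor signalling, with 1.07, and Cd4 with 2.81. Cd4 (ENSMUSG00000023274, chr6:124864692-124888221, GRCm38) did not go with the rest. It had 11.4, 1.74, 12.4, 19.4 and 15.4 CPM in IL-4 MSCs and 0.964, 0.917, 1.398 and 3.70 CPM in PBS. Mouse 2 lay within the PBS range and mouse 4 was the highest, as in the striatal score, whereas mouse 4 was the lowest of its group in Cd3g and Cd8a. Across the 25 libraries of the other groups, Cd4 rose by 3.10 on the log2 scale for each unit of the striatal score (adjusted p = 5.51e-11). Several constant parts of the receptor showed small log2 fold changes that did not pass the test, 0.04 for Cd3d (adjusted p = 0.948) and 0.10 for Trac (adjusted p = 0.890), and Foxp3, the transcription factor of regulatory T cells, had -0.20 (adjusted p = 0.667).

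Cytotoxic and natural killer cell genes had 15 of 17 members tested, of which 3 were higher and 0 lower, with a median of 0.79. Nkg7, a granule protein of cytotoxic lymphocytes, had 8, 11, 14, 4 and 16 counts in IL-4 MSCs and 0, 1, 0 and 0 in PBS, without overlap (adjusted p = 0.00551). The ratio of its summed counts was 42.5, with a 95% exact interval from 7.30 to 1708. Klrc1, which encodes the NKG2A receptor, had 7, 8, 13, 3 and 4 counts against 1, 0, 1 and 1 (adjusted p = 0.0277), a ratio of 9.34 with an interval from 2.95 to 47.5. The third, Eomes, a transcription factor of these lymphocytes and also of some neurons, had 3.22, 0.411, 1.63, 2.76 and 2.57 CPM in IL-4 MSCs and between 0.231 and 0.441 CPM in PBS. As with Cd4, mouse 2 was at the PBS level (log2 fold change 2.48, SE 0.49, adjusted p = 0.00634). Ncr1, the receptor NKp46 of natural killer cells, had 0, 3, 1, 3 and 2 counts in IL-4 MSCs and 0 in all PBS mice, which was not detectable at this depth. Gzmb and Prf1, which encode granzyme B and perforin, had log2 fold changes of 1.84 (adjusted p = 0.492) and 0.40 (adjusted p = 0.751).

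Of 14 chemokines and receptors that attract lymphocytes, 12 were tested and 2 were higher, with a median of 0.73. Ccl5 (ENSMUSG00000035042, chr11:83525778-83530518, GRCm38), a chemokine made by activated T cells, had 0.819, 1.07, 1.30, 0.382 and 0.955 CPM in IL-4 MSCs and 0.138, 0.131, 0.217 and 0.231 CPM in PBS. The groups did not overlap (log2 fold change 2.30, SE 0.50, adjusted p = 0.0105). Cxcr6, a chemokine receptor of tissue T cells, had 27, 21, 18, 14 and 26 counts against 6, 7, 7 and 5 (log2 fold change 1.75, SE 0.34, adjusted p = 0.00552), also without overlap. Cxcl9, a chemokine induced by interferon-gamma, showed 1.36 on the log2 scale and did not pass (SE 0.56, adjusted p = 0.188). In MSCs, Ccl5 had between 0.629 and 2.89 CPM and Cxcr6 between 0.420 and 0.860 CPM, and in Sham neither exceeded 0.155 CPM.

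B cell and plasma cell genes gave little. Of 19 members 13 were tested and 1 was higher, with a median of 0.51. This gene was Ighm, the constant region of immunoglobulin M, with 23.1, 13.7, 24.6, 25.7 and 24.8 CPM in IL-4 MSCs and 11.8, 13.9, 12.3 and 17.7 CPM in PBS (log2 fold change 0.69, SE 0.18, adjusted p = 0.0258). Mouse 2 again lay among the PBS mice, and Ighm rose with the striatal score in the other groups (0.45 on the log2 scale per unit, adjusted p = 0.0277).

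MHC class I presentation was the antigen presentation list with the most higher genes. All 21 genes were tested, and 7 were higher and 0 lower, with a median of 0.31. These were the heavy chains H2-K1, H2-D1, H2-Q4, H2-Q6 and H2-Q7, the light chain B2m and Nlrc5, the activator that drives transcription of class I genes. Background on their promoters explains why the sequences below are shown. Class I promoters carry an upstream kappaB site and, closer to the start, a module with an X2 box, which resembles the cyclic AMP response element and often holds TGACG, and a Y box, which is a CCAAT box and often lies reversed as ATTGG. NLRC5 acts through this module. The 250 bases before the RefSeq start of 4 class I genes are given in the direction of transcription, in lower case with the matches in capitals. The search took a kappaB site (the first run in capitals of each H2 window), the core of an interferon-stimulated response element (the first run in capitals of B2m), the letters CCAAT, the full cyclic AMP response element, the gamma-activated site and the letters TGACG, each on both strands.
H2-K1: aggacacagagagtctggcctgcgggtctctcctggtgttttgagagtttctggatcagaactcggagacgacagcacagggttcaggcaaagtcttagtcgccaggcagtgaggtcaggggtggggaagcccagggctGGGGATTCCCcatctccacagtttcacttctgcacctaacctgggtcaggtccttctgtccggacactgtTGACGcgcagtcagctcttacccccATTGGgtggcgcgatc
H2-D1: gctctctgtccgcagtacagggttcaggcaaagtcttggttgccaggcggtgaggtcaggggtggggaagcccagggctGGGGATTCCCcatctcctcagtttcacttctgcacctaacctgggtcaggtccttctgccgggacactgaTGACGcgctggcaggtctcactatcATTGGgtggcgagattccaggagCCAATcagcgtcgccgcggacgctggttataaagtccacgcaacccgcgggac
H2-Q7: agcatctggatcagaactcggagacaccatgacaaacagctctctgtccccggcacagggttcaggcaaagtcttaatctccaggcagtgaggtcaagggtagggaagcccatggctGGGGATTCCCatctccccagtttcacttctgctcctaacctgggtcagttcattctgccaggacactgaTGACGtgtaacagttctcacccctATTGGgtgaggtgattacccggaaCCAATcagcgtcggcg
B2m: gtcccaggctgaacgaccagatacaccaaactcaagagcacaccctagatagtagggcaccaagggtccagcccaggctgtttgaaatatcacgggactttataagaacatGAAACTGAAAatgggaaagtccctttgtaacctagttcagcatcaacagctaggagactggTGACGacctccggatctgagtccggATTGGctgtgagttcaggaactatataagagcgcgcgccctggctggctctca

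These windows are chr17:34000348-34000597 on the minus strand for H2-K1 (the first of 2 starts), chr17:35262844-35263093 on the plus strand for H2-D1, chr17:35438905-35439154 on the plus strand for H2-Q7 and chr2:122147437-122147686 on the plus strand for B2m (RefSeq, GRCm38.p6). No capital run overlaps another. The kappaB site starts at base -111 of H2-K1, -171 of H2-D1 and -133 of H2-Q7 and also occur in the window of H2-Q6, while 28 of 32851 promoters of the same length hold these letters (0.0852%). The window of B2m has the interferon-stimulated response element core at -139, which 2.98% of promoters hold. This core was searched as a fixed pattern of letters. The lack of a match in the H2 windows does not show that they hold no interferon element of other letters. CCAAT is found in 33.8% of promoters and TGACG in 17.8%, and each of the 4 windows has both. The H2-Q4 window has CCAAT and TGACG and not that kappaB site. No promoter of Nlrc5 or H2-Ab1 was in the table used. The full cyclic AMP response element (1.55% of promoters) and the gamma-activated site (7.02%) had 0 matches in these windows. A match is a description of the letters and not of a bound site.

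H2-D1 (ENSMUSG00000073411, chr17:35262730-35267499, GRCm38) had 93.6, 97.3, 81.9, 56.1 and 86.6 CPM in IL-4 MSCs and 41.6, 40.5, 48.0 and 55.6 CPM in PBS. The groups did not overlap, though by little, mouse 2 was the highest and mouse 4 the lowest IL-4 MSC mouse, and the difference was 1.79-fold (log2 fold change 0.84, SE 0.17, adjusted p = 0.00672). H2-K1 (ENSMUSG00000061232, chr17:33996017-34000347, GRCm38) had 53.1, 49.6, 38.6, 24.8 and 47.5 CPM against 22.8, 21.2, 24.1 and 29.0 CPM. Only mouse 4 overlapped with PBS (log2 fold change 0.82, SE 0.20, adjusted p = 0.0205). H2-Q7 had 2.82, 4.58, 3.35, 1.23 and 3.32 CPM in IL-4 MSCs and 0.579, 0.590, 0.675 and 1.65 CPM in PBS, a 3.54-fold difference (log2 fold change 1.83, SE 0.37, adjusted p = 0.00710). H2-Q6 had a log2 fold change of 1.15 (adjusted p = 0.0310) and H2-Q4 of 0.44 (adjusted p = 0.0465). The H2 heavy chains are near-identical copies, so that kallisto could have divided reads between them and their separate values are uncertain.

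B2m, which is not a member of that family, had 97.99, 93.1, 76.1, 60.7 and 93.2 CPM in IL-4 MSCs and 54.5, 54.1, 55.3 and 67.2 CPM in PBS (log2 fold change 0.54, SE 0.14, adjusted p = 0.0334). PBS mouse 4 was the highest of its group and lay above IL-4 MSC mouse 4. Nlrc5 (ENSMUSG00000074151, chr8:94434356-94527272, GRCm38) had 3.67, 4.62, 2.63, 1.53 and 4.80 CPM against 1.24, 1.83, 1.61 and 1.82 CPM (log2 fold change 1.09, SE 0.26, adjusted p = 0.0180). IL-4 MSC mouse 2 was above all PBS mice in all 7 of the higher class I genes. It was above them in 13 of all 21 class I genes and in 3515 of 17131 genes tested (20.5%). This mouse entered the comparison that made the 7 calls, so these are counts and not a test. Genes of peptide processing and loading did not pass the test. Psmb8 and Psmb9, subunits of the immunoproteasome, had log2 fold changes of 0.70 (adjusted p = 0.0675) and 0.47 (adjusted p = 0.281), and Tap1, the peptide transporter, of 0.41 (adjusted p = 0.225). In MSCs the mean of H2-D1 was 90.9 CPM, that of B2m 91.0 CPM and that of Nlrc5 3.68 CPM, and in Sham the means were 38.5, 48.3 and 0.934 CPM.

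In MHC class II 2 of 11 tested genes were higher and 0 lower, and all 11 had a positive log2 fold change, with a median of 0.52. Over all genes tested, 9014 of 17131 had a positive one. Cd74, the invariant chain that accompanies class II molecules, had 18.5, 28.2, 12.2, 7.02 and 19.8 CPM in IL-4 MSCs and 5.79, 3.73, 4.92 and 8.58 CPM in PBS (log2 fold change 1.58, SE 0.44, adjusted p = 0.0407). H2-Ab1, a class II beta chain, had 6.97, 9.01, 4.78, 2.81 and 6.61 CPM against 2.15, 1.15, 1.81 and 3.47 CPM (log2 fold change 1.499, SE 0.41, adjusted p = 0.0360). In both genes mouse 2 was the highest IL-4 MSC mouse, and mouse 4 alone overlapped with PBS. H2-Aa and H2-Eb1 had log2 fold changes of 1.34 (adjusted p = 0.0835) and 1.17 (adjusted p = 0.0948). In MSCs the mean of Cd74 was 25.5 CPM and that of H2-Ab1 7.95 CPM.

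Few dendritic cell and interferon genes passed the test. Among 12 dendritic cell genes 0 were higher, and Flt3, the receptor of the dendritic cell growth factor FLT3 ligand, was lower, with 7.99, 11.98, 11.1, 7.97 and 9.29 CPM in IL-4 MSCs and 14.2, 12.9, 11.95 and 11.5 CPM in PBS (log2 fold change -0.39, SE 0.10, adjusted p = 0.0222). Of 17 GTPases induced by interferon-gamma 0 passed the test, although 14 had a positive log2 fold change with a median of 0.39, and in the fit of only the 2 groups 6 of 15 were higher at an unadjusted p under 0.05. In the list of interferon signalling and response 1 of 25 genes was higher, 23 had a positive log2 fold change with a median of 0.28, and 11 of 25 were higher at an unadjusted p under 0.05 with only the 2 groups. Over all genes tested, 9014 of 17131 had a positive log2 fold change, and 7.84% were higher at such a p with only the 2 groups. The gene that passed was Bst2, the antiviral protein tetherin, with 6.44, 4.39, 3.58, 2.32 and 6.24 CPM against 2.67, 2.06, 2.96 and 2.97 CPM (log2 fold change 0.78, SE 0.20, adjusted p = 0.0300).

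The striatal lists held the largest number of higher genes. In the list of striatal projection neurons 26 of 30 genes were higher and 0 lower, with a median of 1.08. Ppp1r1b (ENSMUSG00000061718, chr11:98348404-98357796, GRCm38) encodes DARPP-32, the phosphatase inhibitor through which dopamine signals in these neurons. It had 335, 81.6, 342, 528 and 413 CPM in IL-4 MSCs and 60.4, 46.4, 82.9 and 118 CPM in PBS. Mouse 2 was within the PBS range and the other 4 IL-4 MSC mice were far above it (log2 fold change 2.14, SE 0.45, adjusted p = 0.00812). Lrrc10b, with the smallest p of all list genes, had 55.6, 20.4, 63.4, 91.0 and 76.0 CPM against 15.7, 15.2, 18.5 and 20.5 CPM (log2 fold change 1.81, SE 0.29, adjusted p = 0.00265). Others of the list were Pde1b, a phosphodiesterase, with 1.12, Rarb, a retinoic acid receptor, with 1.63, Gng7, a G protein subunit, with 1.32, and Foxp1, a transcription factor, with 0.63 (log2 fold changes).

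Genes of both pathways were higher. In the direct pathway list 4 of 10 genes were higher, with a median of 0.90. Drd1, the dopamine receptor D1, had 49.3, 13.9, 52.4, 104 and 66.0 CPM in IL-4 MSCs and 9.89, 9.57, 15.4 and 18.7 CPM in PBS (log2 fold change 2.10, SE 0.46, adjusted p = 0.0105). Tac1, the precursor of substance P, had a log2 fold change of 1.54 (adjusted p = 0.0290), Slc35d3, which helps D1 receptors reach the membrane, of 2.27 (adjusted p = 0.00730) and Chrm4, a muscarinic receptor, of 0.80 (adjusted p = 0.00940). In the indirect pathway list 6 of 8 genes were higher, with a median of 1.66. Drd2, the dopamine receptor D2, had 41.9, 6.54, 38.4, 72.2 and 48.9 CPM against 9.34, 4.88, 7.64 and 12.01 CPM (log2 fold change 2.30, SE 0.47, adjusted p = 0.00730). Adora2a, an adenosine receptor, had 66.9, 12.2, 61.2, 104 and 74.8 CPM against 6.45, 2.95, 13.2 and 17.99 CPM (log2 fold change 2.65, SE 0.71, adjusted p = 0.0358). Penk, the precursor of enkephalin, had a log2 fold change of 1.94 (adjusted p = 0.0307), Gpr6 of 2.42 (adjusted p = 0.0108), Gpr52 of 1.38 (adjusted p = 0.00556) and Sp9, a transcription factor of this pathway, of 0.94 (adjusted p = 0.00710). In all of the genes given by mouse here, IL-4 MSC mouse 2 lay below the highest PBS mouse.

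Cholinergic genes had a median of 1.64 with 1 of 6 higher. Lhx8, a transcription factor of cholinergic neurons, had 165, 14, 113, 298 and 204 counts in IL-4 MSCs and 4, 1, 23 and 22 counts in PBS (log2 fold change 3.63, SE 1.02, adjusted p = 0.0434). Chat, the enzyme that makes acetylcholine, had 6.55, 1.99, 7.74, 9.04 and 7.88 CPM against 1.49, 0.197, 2.60 and 2.21 CPM, and its log2 fold change of 2.01 did not pass the test (SE 0.68, adjusted p = 0.101). In the interneuron list 3 of 9 genes were higher, Slc32a1, the vesicular GABA transporter, with 0.63, Gad1, an enzyme of GABA synthesis, with 0.41, and Npy, a neuropeptide, with 0.46 (log2 fold changes). The 3 Sham mice taken at 3 weeks, uninjured and not treated with cells, had scores of the striatal projection neuron list of 6.00, 6.04 and 6.16, above all 4 PBS mice, and the 2 taken at 1 week had 5.19 and 5.16. MSCs had scores between 5.20 and 5.98.

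The lymphocyte and striatal genes were compared in 3 ways, by IL-4 MSC mouse 2, whose striatal score was in the PBS range, by the other groups of the series, and by a covariate, all chosen after results of these data were known. IL-4 MSC mouse 2 was above all PBS mice in 20 of the 23 higher lymphocyte and antigen presentation genes, Cd4, Eomes and Ighm being the exceptions, and in 2 of the 37 higher striatal genes. Of all genes tested this mouse was above all PBS mice in 3515 (20.5%), and of the 371 higher genes in 110 (29.6%). Mouse 2 entered the comparison that made these calls, so these are counts and not a test.

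**Figure D4:**
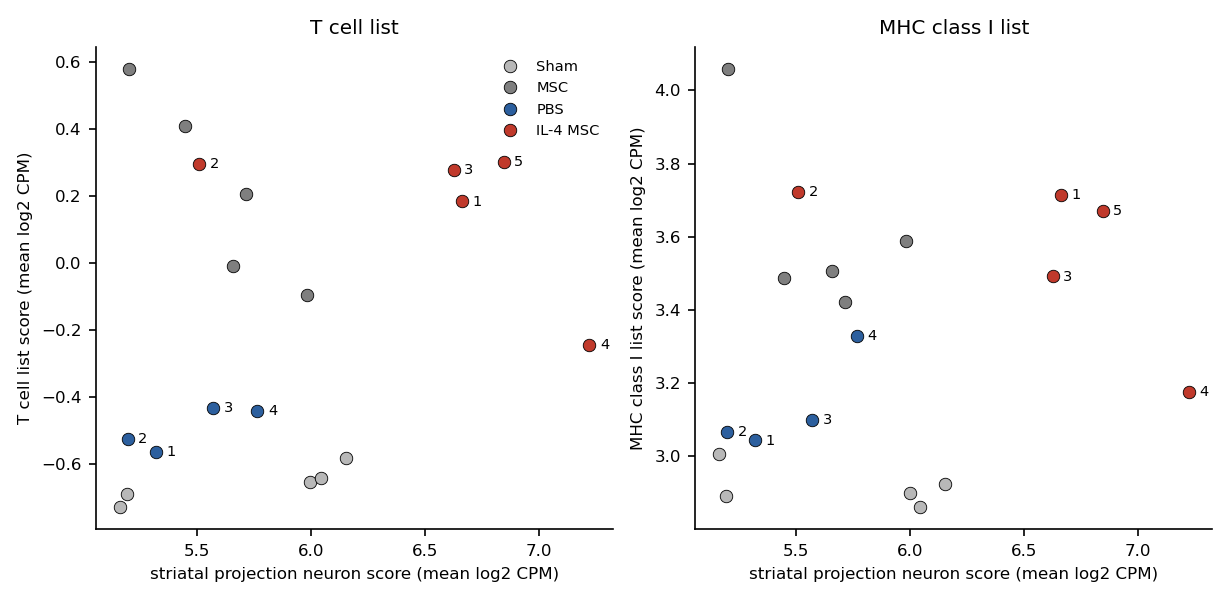
The striatal score of each mouse (horizontal axis) against its T cell score (left) and its MHC class I score (right), all as mean log2 CPM, for IL-4 MSCs, PBS, MSCs and Sham, with the mouse numbers of IL-4 MSCs and PBS. IL-4 MSC mouse 2, with a striatal score of 5.51, is at 0.30 for T cell genes and 3.72 for class I genes, while mouse 4, with 7.22, is at -0.25 and 3.18, and PBS mouse 4 is at 3.33 for class I genes.

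In the 25 libraries of the other 5 groups, whose levels do not enter the log2 fold change between IL-4 MSCs and PBS, the slope of each gene on the striatal score was tested within groups with edgeR's quasi-likelihood test. Of 16950 genes 1246 had a positive slope (7.35%) and 1078 a negative one (6.36%) at an adjusted p under 0.05. Among the 371 genes higher in IL-4 MSCs, of which 7 had too few counts for this test, 205 had a positive slope (55.3%) and 2 a negative one. Among the 133 lower genes, 62 had a negative slope (46.6%) and 0 a positive one. Genes that differed between the treatments thus had such a slope more often than the genes tested at large, although the share was not tested. Sham entered this fit as 1 group, although its mice 3 and 4 were taken at 1 week and its other mice at 3 weeks. Of the 5 groups it had the largest SD of the striatal score, which was lower in the mice taken at 1 week. Within Sham, a slope thus cannot be told apart from a difference between weeks or between the numbers before the dash. The slopes and the counts built on them include this part. Genes of the projection neuron list make up the score, so their slopes are no separate result. Of the striatal lists outside it, a positive slope was found in 7 of 10 direct pathway, 8 of 8 indirect pathway and 6 of 6 cholinergic genes. Direct and indirect pathway genes mark the same neurons as the score. Positive slopes were also found in 9 of 12 thalamic, 10 of 13 choroid plexus and ependymal and 8 of 16 oligodendrocyte genes. The list of pallidal, septal and other subcortical neurons had 9 of 12. A positive slope is thus not particular to striatal genes, and thalamic genes had a negative median log2 fold change (-0.47) between the treatments. In the lymphocyte and antigen presentation lists the slope could be tested in 106 genes, of which 3 had a positive and 5 a negative one. Of the 23 higher genes of these lists, 2 had a positive slope (Cd4 and Ighm), 1 a negative one (Ccl5, -1.20, adjusted p = 0.04997), 16 had neither, and 4 (Cd3g, Cd8b1, Klrc1 and Icos) had too few counts for the test in those groups.

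With the striatal score as a covariate, 7 genes passed on the higher side (0.0409%) and 1 on the lower side (0.00584%). The covariate is the mean of the 30 projection neuron genes, so that their own loss of the call follows from its construction and is no result. Of the striatal lists outside it, the median log2 fold change was -0.12 in place of 0.90 for the direct pathway, -0.13 in place of 1.66 for the indirect pathway and -0.83 in place of 1.64 for cholinergic genes, and 0 of these genes passed. Direct and indirect pathway genes mark the same projection neurons as the covariate. Their shift was thus largely set by its choice and is no separate result. The median of the lymphocyte and antigen presentation lists was 0.58 in place of 0.42, and 6 of the 7 higher genes came from these lists. They were Cd8a with a log2 fold change of 2.06 (adjusted p = 0.0118), Cd3g with 4.64 (adjusted p = 0.0118), Ccl5 with 3.19 (adjusted p = 0.0118), H2-Q7 with 2.38 (adjusted p = 0.0118), H2-D1 with 1.02 (adjusted p = 0.0420) and Nlrc5 with 1.52 (adjusted p = 0.0420). The seventh was Gimap3, a GTPase of lymphocytes, with 2.78 (adjusted p = 0.0420), which was in none of the lists and is named after its values were seen. Gimap3 had 46, 40, 32, 16 and 50 counts in IL-4 MSCs and 9, 9, 7 and 6 in PBS. The lower gene was Hcrt, whose counts split the mice within each group. Cd4 had a log2 fold change of -0.35 with the covariate, and Ighm of 0.11. When only the 2 groups were fitted with this covariate, an alternative chosen after the data were seen, 0 genes passed and 528 had an unadjusted p under 0.05.

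**Figure D5:**
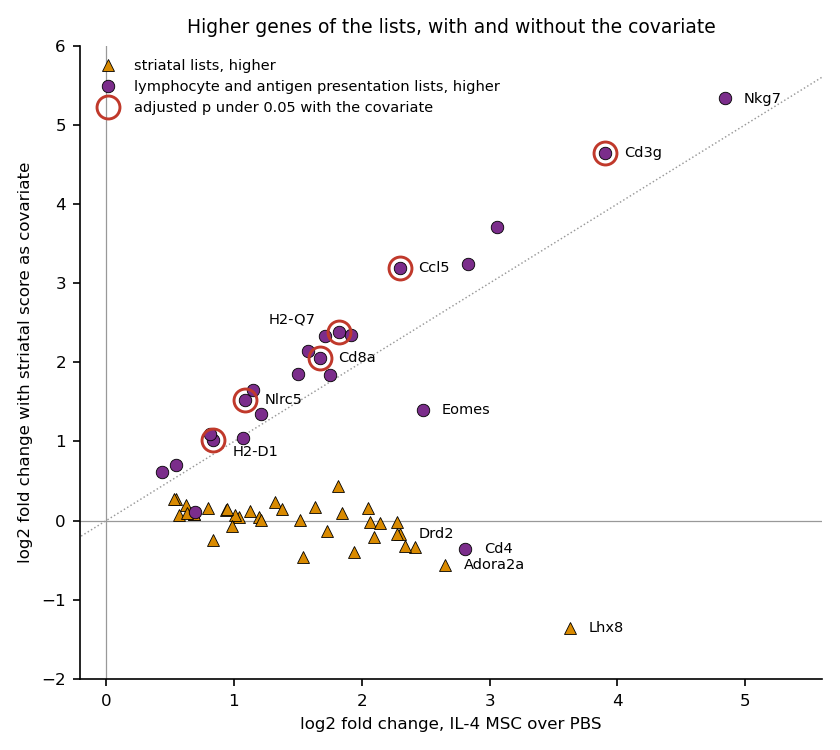
The log2 fold change of IL-4 MSCs over PBS at 3 wpi without (horizontal axis) and with the striatal score as a covariate (vertical axis), for the 37 striatal genes (triangles) and 23 lymphocyte and antigen presentation genes (circles) that were higher. Striatal genes move toward 0 and Lhx8 to -1.35. For projection neuron genes this follows from their part in the score, and direct and indirect pathway genes mark the same neurons. Most immune genes lie above the dotted line of equal values, and rings mark the 6 that passed the test with the covariate.

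Leaving out single mice moved the sets differently. Without IL-4 MSC mouse 2, 839 genes were higher and 743 lower, with 22 of the lymphocyte and antigen presentation lists and 41 of the striatal lists among the higher. Without IL-4 MSC mouse 4, which had the highest striatal score, 130 were higher and 20 lower, with 20 and 23 of these lists. Without PBS mouse 1, 94 were higher and 3 lower, with 7 and 20 of these lists, and the 7 were Cd3g, Cd8a, Cxcr6, Eomes, H2-D1, H2-Q7 and Nkg7.

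Among the 12 genes with the smallest p on the higher side, Lrrc10b, Gng7 and Foxp1 belong to the striatal list and Cd8a and Cd3g to the T cell list. The other 7 were Ano3, a protein of the anoctamin family, Smpd3, a sphingomyelinase, Gpr155, Ryr1, a calcium release channel, Kcnab1, a potassium channel subunit, Rem2, a small GTPase, and Ptpn7, a phosphatase of blood cells. Their log2 fold changes lay between 0.44 for Gpr155 and 1.15 for Ptpn7. Absence from the striatal lists does not show that they are unrelated to the striatum. In the other groups Smpd3 rose with the striatal score (0.17 per unit, adjusted p = 0.0121 in edgeR). Ano3 and Gpr155 had no slope that passed (adjusted p = 0.0642 and 0.538). Ano3, with the smallest p of all genes, had 176, 125, 189, 239 and 219 CPM in IL-4 MSCs and 122, 127, 117 and 114 CPM in PBS (log2 fold change 0.66, SE 0.11, adjusted p = 0.00265). Mouse 2 was again within the PBS range.

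The lower genes had small differences. The 12 with the smallest p were Gm12216, Chst8, Prune2, Cmbl, Wnt5a, Glra1, Mfsd6, Disp2, Sox14, Adamts2, St8sia1 and Kcnd3. Only Glra1, a glycine receptor subunit, and Sox14, a transcription factor of thalamic and midbrain GABAergic neurons, passed a log2 fold change of -1 among them, with -1.498 (SE 0.31, adjusted p = 0.00812) and -3.84 (SE 0.84, adjusted p = 0.0103). Sox14 had 8, 2, 2, 0 and 1 counts in IL-4 MSCs and 55, 54, 20 and 24 counts in PBS, without overlap, and in Sham between 0.101 and 1.53 CPM. In other groups it fell by 3.07 on the log2 scale for each unit of the striatal score (adjusted p = 1.18e-05), and Glra1 fell by 0.86 (adjusted p = 0.000572). Wnt5a, a signalling ligand, showed a log2 difference of -0.32 (SE 0.07, adjusted p = 0.00805) and no slope that passed (adjusted p = 0.311). Of 14 hippocampal genes 1 was lower and all 14 had a negative log2 fold change, with a median of -0.94. Over all genes tested, 9014 of 17131 had a positive one. Of 12 thalamic genes 0 passed, with a median of -0.47.

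Few genes of the IL-4 response passed the test at this time. Of 27 genes that IL-4 induces in microglia or macrophages, 1 was higher and 0 lower, with a median of 0.06. It was Cish, an inhibitor of cytokine signalling, with 6.83, 5.06, 7.64, 7.42 and 6.79 CPM in IL-4 MSCs and 4.68, 4.46, 5.01 and 5.64 CPM in PBS (log2 fold change 0.45, SE 0.12, adjusted p = 0.0369), and it too rose with the striatal score in the other groups (0.42 per unit, adjusted p = 0.00131). Arg1, arginase 1, had 13, 16, 7, 5 and 15 counts against 5, 8, 8 and 4 (log2 fold change 0.84, SE 1.37, adjusted p = 0.822). Chil3, a chitinase-like protein, had 9, 42, 2, 1 and 4 counts against 6, 1, 1 and 3 (adjusted p = 0.386), and 1 mouse held most of them. Il4 had 3, 5, 5, 3 and 8 counts in IL-4 MSCs and 6, 6, 9 and 5 in PBS, too few to be tested. In the lists of homeostatic microglia, disease-associated microglia, reactive astrocytes, oligodendrocytes, endothelial cells and inflammatory cytokines 0 genes were higher and 0 lower, with medians between -0.04 and 0.22. Adgre1, the macrophage marker F4/80, was the only higher gene of 14 in the macrophage list, with 9.68, 9.29, 7.97, 7.15 and 9.15 CPM against 5.24, 5.47, 6.29 and 5.91 CPM and no overlap (log2 fold change 0.59, SE 0.16, adjusted p = 0.0324).

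The same contrast at 1 wpi, 2 days after treatment, differed from that at 3 wpi in 808 of 17131 genes (4.72%), and the signed log2 fold change was lower at 3 wpi in 673 of them. MHC class I genes differed in 16 of 21, interferon genes in 26 of 42 and IL-4 response genes in 13 of 27, and in all of these the log2 fold change was lower at 3 wpi. For H2-K1 it was 2.26 at 1 wpi and 0.82 at 3 wpi, a difference of -1.44 (SE 0.27, adjusted p = 0.000917). T cell genes differed in 1 of 29 and cytotoxic genes in 0 of 15. Many of these genes had few counts, so the lack of a call does not show an equal difference at both times. The cytotoxic score was -0.46 with IL-4 MSCs and -2.08 with PBS at 1 wpi, and -1.61 and -2.40 at 3 wpi. The T cell score was 0.20 and -0.41 at 1 wpi, and 0.16 and -0.49 at 3 wpi. In the striatal lists 3 of 54 differed, each with the larger log2 fold change at 3 wpi.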

How the data were processed

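Gene expression was measured by RNA sequencing of bulk tissue. The authors trimmed the reads with cutadapt 2.4, checked them with FastQC 0.11.8, quantified them with kallisto 0.46 and tested with sleuth 0.30, per the study's methods and the submitters' processing notes. The deposited table holds kallisto's estimated counts and TPM per gene. Columns of the authors' own comparisons were not used.

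Estimated counts were rounded to whole numbers and fitted with edgeR 4.0.16 in R 4.3.3 (TMM scaling, filterByExpr, two-sided quasi-likelihood test, Benjamini-Hochberg adjustment), with all 34 libraries in 7 groups and an adjusted p threshold of 0.05. Adjusted p-values in the text come from this test over all genes tested. It kept 17131 of 21203 genes. CPM used TMM-scaled library totals (the level of 3 counts and the ratios of summed counts used unscaled totals), and a score is the mean over a list of log2 CPM (prior count 2). TPM were not needed for the comparisons. The labels name separate mice. No pair of libraries in the 2 groups was a copy of another (chi-square per gene 7.54 to 50.1 over 16 pairs). The fit was tested on simulated data in which all groups had the same spread, so that test does not bear on unequal spread between groups.

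The comparison and 32 gene lists (486 genes, 457 tested) were chosen with earlier results of these data known. Named genes were the 12 of smallest p higher and lower, up to 5 passing members of each lymphocyte, antigen presentation, interferon and striatal list, up to 2 of each other list, and a fixed set of markers. Other list members given with a log2 fold change were picked after their values were seen. Promoters come from RefSeq (GRCm38.p6) and gene positions from the GENCODE annotation of GRCm38. Alternatives were other spreads, DESeq2 1.42.0, limma 3.58.1 voom, scalings, filters, covariates, a replicate block and leaving out each mouse. Some named genes are not reported here.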

Additional observations from a re-analysis of the deposited data

Results flagged for a closer look

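In 152 tests of a group of mice for a value far from the others, 16 gave one, where chance gives about 1 in 20 of independent tests. These tests were not independent, as many of the genes were picked by their values and the same mouse recurs. The share is therefore no sign of an excess of separate outliers. In log2 CPM, IL-4 MSC mouse 2 lay far below the rest of its group in Ppp1r1b (6.35), Drd2 (2.72), Adora2a (3.62), Gpr6 (1.32), Lhx8 (-0.996), Chat (1.04), Cd4 (0.85), Ighm (3.78) and Cish (2.36). IL-4 MSC mouse 4 lay far below in Cd3g (-2.36) and H2-Q6 (1.04). PBS mouse 4 lay far above the other PBS mice in H2-Q7 (0.77) and B2m (6.07). PBS mouse 1 stood apart in Gm12216 (1.07), and PBS mouse 2 in Nkg7 (-3.45) and Cxcr6 (-1.79), where PBS counts were low.

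The difference of the log2 fold changes (3 wpi minus 1 wpi) was tested by a contrast of the 4 groups in edgeR and passed for 16 named genes. It was negative for Mrc1 (-3.20), H2-Q6 (-1.83), H2-K1 (-1.44), Postn (-1.43), Bst2 (-1.21), H2-D1 (-1.19), B2m (-1.09), Adgre1 (-0.996) and Gm12216 (-0.84), of which only Gm12216 was lower in IL-4 MSCs at 3 wpi. It was positive for Lrrc10b (1.41), Rem2 (0.99), Ryr1 (0.77), Smpd3 (0.63), Kcnab1 (0.51), Ano3 (0.51) and Gpr155 (0.51).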

How the results depend on the processing

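The counts of genes depended most on which groups set the spread and on the striatal score. In the order higher, lower, higher in the lymphocyte and antigen presentation lists and higher in the striatal lists, they were 371, 133, 23 and 37. They became 0, 0, 0 and 0 with only the 2 groups, 1 (Cd8a), 0, 1 and 0 with only the 3-week groups and Sham, 7, 1, 6 and 0 with the striatal score as covariate, and, added after the data were seen, 8, 2, 7 and 0 with striatal, hippocampal and thalamic scores and 0, 0, 0 and 0 with only the 2 groups and the striatal score. DESeq2 gave 510, 253, 20 and 38, limma voom with quality weights 980, 706, 33 and 40, and a log2 fold change of at least 1 left 82, 12, 18 and 25. Leaving out 1 mouse gave 94 to 839 higher, 3 to 743 lower, 7 to 23 in the lymphocyte and antigen presentation lists and 20 to 41 in the striatal lists. Other scalings and filters gave 346 to 373 higher genes, and no setting moved the median of all genes by more than 0.00876 on the log2 scale. The cause of these shifts was not tested.

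Mice with the same replicate number did not deviate together (r = -0.05, -0.02, -0.02 and -0.11 over genes), and the main fit took the mice as unpaired. These values were centred within small groups, so they cannot exclude that mice with the same number share something. With the number as a replicate block 307 genes were higher and 93 lower, with 15 of the lymphocyte and antigen presentation lists and 35 of the striatal lists, and the week difference passed in 1 striatal gene.

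The week difference passed in 13 IL-4 response, 24 lymphocyte and antigen presentation and 3 striatal genes. The striatal count was 0 with only the groups compared, 6 with DESeq2, 10 with voom, 1 at a log2 fold change of at least 1 (14 for the lymphocyte and antigen presentation lists), and 0 to 20 without 1 mouse. Without 1 mouse the IL-4 response count was 12 to 14 and the lymphocyte and antigen presentation count 20 to 34.

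Log2 fold changes turned negative only with covariates. With the striatal score they were -0.35 for Cd4, -0.023 for Slc35d3, -0.21 for Drd1, -0.46 for Tac1, -0.17 for Drd2, -0.33 for Gpr6, -0.39 for Penk, -1.35 for Lhx8, -0.56 for Adora2a, -0.031 for Ppp1r1b and -0.046 for Slc32a1. With 3 scores they were -0.16 for Cd4, -0.16 for Drd1, -0.42 for Tac1, -0.23 for Drd2, -0.23 for Gpr6, -0.20 for Penk, -0.59 for Lhx8, -0.19 for Adora2a, -0.18 for Slc32a1 and -0.055 for Gad1. With only the 2 groups and the striatal score they were -0.014 for Gpr155, -0.086 for Gng7, -0.030 for Rarb, -0.021 for Chrm4, -0.0092 for Drd1, -0.53 for Tac1, -0.086 for Sp9, -0.20 for Drd2, -0.0022 for Penk, -0.24 for Slc32a1 and -0.056 for Gad1. Genes with few counts, such as Cd3g, Nkg7 and Klrc1, are limited by depth, and low values near 3 counts are not told apart.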

Other observations

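Lists not yet described gave few calls at 3 wpi. Choroid plexus and ependymal genes had 0 of 13 passing with a median log2 fold change of 0.60, and all 13 were positive, against 9014 of 17131 over all genes tested. PBS mouse 2 had a choroid plexus score of 0.52, against 2.69 to 3.96 in the other 8 mice. Among fibroblast and meningeal genes 2 of 12 were higher, with a median of -0.09. These were Postn, a matricellular protein, whose log2 fold change was 1.06 (adjusted p = 0.0108 in edgeR), and Col6a1, a chain of collagen VI, with 0.54 (adjusted p = 0.0255). In the cortical list 1 of 18 genes was higher, Tle4, a transcriptional corepressor of deep-layer neurons, with 0.31 (adjusted p = 0.0147). In the list of pallidal, septal and other subcortical neurons 1 of 12 was higher, Lhx6, with 0.54 (adjusted p = 0.0105). Of the immediate early list (12 genes), the red blood cell list (5), the neutrophil and mast cell list (5) and the posterior Hox list (8), 0 genes passed in edgeR, and the medians were -0.17, 1.01, -0.54 and 0.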
